A study of Rattus norvegicus with 6 samples.

Results

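The genes described here are 43 genes that mark the identity of hippocampal neurons and build their shape: vesicular glutamate transporters, transcription factors of excitatory and regional identity, interneuron genes, calcium-binding and regional markers, and proteins of the neuronal cytoskeleton. They were chosen by name, and every probe set to which the array's annotation gives one of these symbols as its only symbol was taken. In this way 40 of the 43 genes were measured, by 72 of the 31099 probe sets of the array, out of 14218 genes with such a probe set. Slc17a8, Lhx6 and Dlx2 had no probe set of this kind, so that their levels were not analysed here.

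The study asked which transcripts respond to a blockade of inhibition in the hippocampus, and applied gabazine to organotypic cultures, which are slices of hippocampus that survive outside the animal with much of their local circuit. Gabazine is an antagonist of the GABA-A receptor, a chloride channel through which neurons inhibit each other quickly. The 3 gabazine samples were cultures of Wistar rats treated with 20 µM gabazine for 90 min (GabT), and the 3 control samples were untreated cultures of the same strain, age and preparation. No genetic change is given for either group. The pups were at postnatal day 4 by the labels, and the methods give postnatal day 4 to 5. The cultures were made with the roller tube method, and each of the 3 biological replicas used cultures from 2 littermates, part of which were treated, so that animals were pooled within a sample. The gabazine array and the control array of the same replica form a pair, and pair 1, pair 2 and pair 3 follow the replica numbers of the labels.

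As background, excitatory neurons of the hippocampus load glutamate into vesicles with Slc17a7 or Slc17a6, while the transcription factors Prox1, Zbtb20, Bcl11b and the Neurod family help to set and keep their regional fate. Neurofilaments, microtubules and the membrane proteins of the growth cone give axons and dendrites their form, and many of these genes are switched on, or switched off again, as a neuron matures. Such transcripts are mostly used to tell which neurons are present and how mature they are, in contrast with the immediate early genes, which answer to activity within minutes.

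The values are log2 intensities, so that a difference of 1 between the arrays of a pair is a 2-fold change. Each gene is given by its brightest probe set, the one with the highest mean over the 6 arrays, and its log2 ratio is the value with gabazine less that of the control in the same pair. The labelled tissue was checked on its own markers. On all 6 arrays, 38 of the 40 genes lay above the median of all probe sets, beside 8776 of all 14218 genes on their brightest probe sets. Most genes thus lay there too, so that this is a weak check of the tissue. The exceptions were Tbr1 and Wfs1, and the excitatory markers Slc17a7, Slc17a6, Neurod2, Neurod6 and Nrgn were among the 38. The array medians were 8.71, 7.89 and 8.68 with gabazine and 8.63, 7.90 and 8.71 in the controls of pairs 1, 2 and 3, so that both arrays of pair 2 lay lower as a whole. In these bulk samples, fewer cells of a type and less RNA per cell cannot be told apart.

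After 90 min of GabT the neuron identity and structural genes differed little from their controls. Their mean log2 ratios ran from -0.27 for Dcx, the microtubule protein doublecortin, to 0.55 for Nefl, the light neurofilament subunit, with a median of 0.10 over the 40 genes against -0.005 over all 14218 genes. In the paired limma model with Benjamini-Hochberg adjustment over 31099 probe sets, 0 of the 72 probe sets passed an adjusted p of 0.05 in either direction, and likewise 0% of all probe sets were called higher and 0% lower. The smallest adjusted p was 0.467 over all probe sets and 0.747 over the 72. At an unadjusted p under 0.05, without correction for the number of tests, 7 of the 72 probe sets were higher and 0 were lower, beside 1.84% and 2.68% of all probe sets. With 3 pairs a sign-flip permutation test cannot go below p = 0.25, so a single gene has no exact test that could pass.

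Taken gene by gene on the brightest probe set, 5 of the 40 genes were higher at an unadjusted limma p under 0.05, where 2.37% of all genes were, and 0 were lower, where 2.84% were. Without the pairing in the model 0 of the 40 passed this level. The 5 became 9 without replica 1, 2 without replica 2 and 1 without replica 3, so that each replica bore on the count. The shares of all genes with a replica left out are not given, and those for 3 pairs do not apply there. Higher values in all 3 pairs were found for 9 of the 40 genes, which is 22.5% against 7.79% of all genes. These were Nefl, Wfs1, Hpca, Nrgn, Basp1, Uchl1, Tubb3, Ncald and Eno2. Lower values in all 3 pairs were found for Meis2 alone, which is 2.5% against 10.8% of all genes. In no gene of the 40 did the 3 gabazine arrays lie entirely above the 3 control arrays or entirely below them, a separation seen upward in 0.239% of all genes and downward in 0.0563%.

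**Figure D1:**
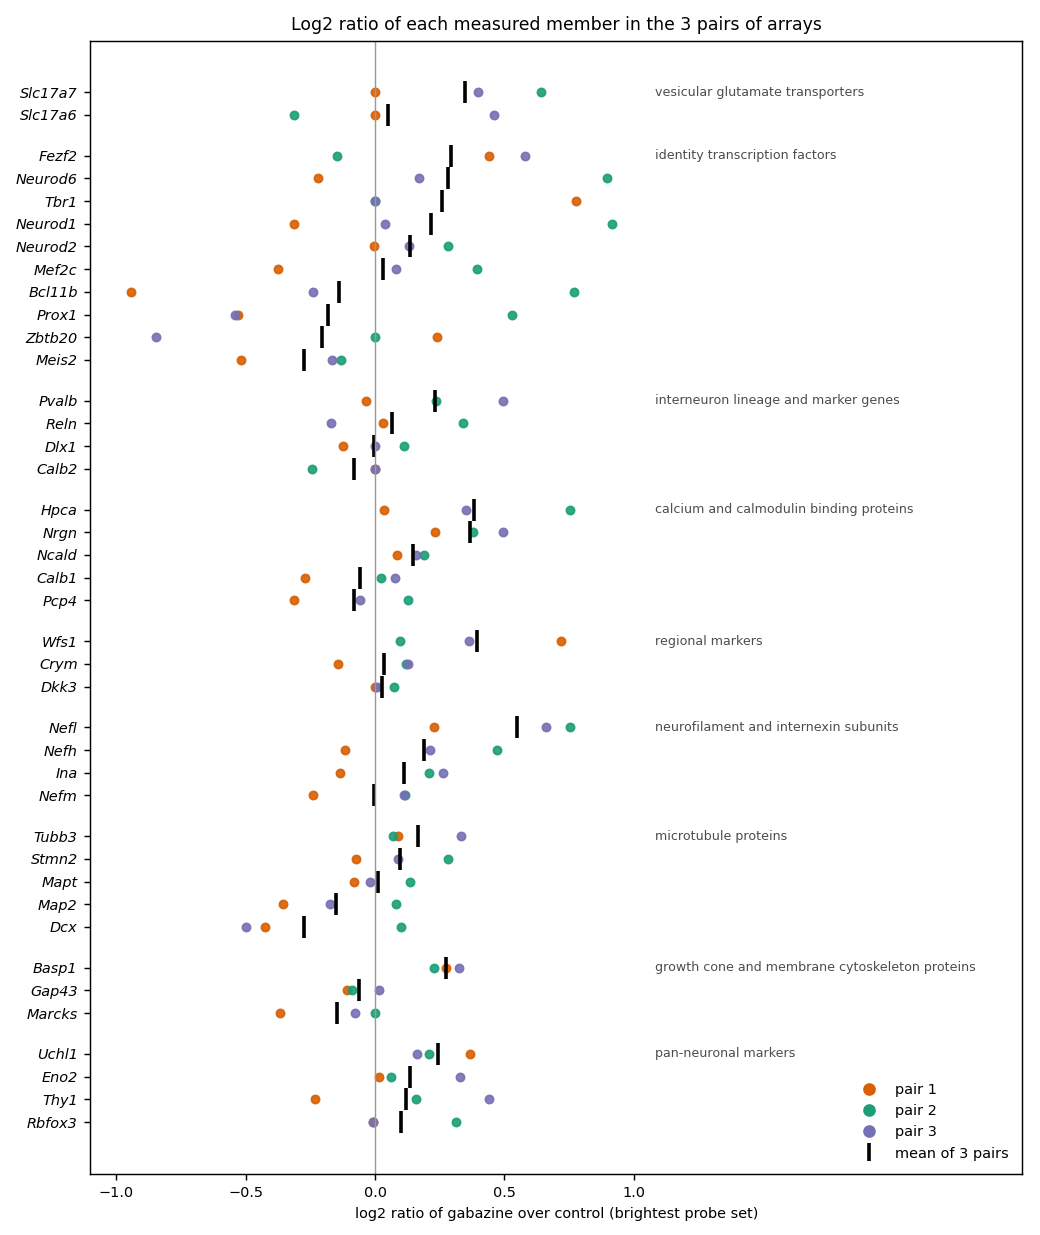
Log2 ratio of gabazine over control for the 40 measured genes in pair 1, pair 2 and pair 3 (points) and their mean (black bars), with genes grouped by role. The means lie between -0.27 and 0.55, and the points of one gene often fall on both sides of 0.

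The 5 genes with an unadjusted p under 0.05 are described first. They belong to different roles: Basp1 is a growth cone protein bound to the inner face of the membrane, Nrgn (neurogranin) binds calmodulin in the dendrites of excitatory neurons, Uchl1 is an abundant neuronal ubiquitin hydrolase, Nefl is the core subunit of the neurofilament, and Ncald (neurocalcin delta) is a calcium sensor.

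Basp1 measured 13.36, 11.90 and 12.64 with gabazine in pairs 1, 2 and 3, against 13.08, 11.67 and 12.32 in the controls. Every gabazine array was above its own control, by 0.28, 0.23 and 0.32, while the groups overlapped, with the lowest values in replica 2. The mean log2 ratio was 0.28 with a standard error of 0.04 (1.21-fold, limma adjusted p = 0.747), which was the smallest p of the 40 genes. Nrgn measured 13.87, 12.34 and 13.57 with gabazine, against 13.64, 11.96 and 13.08 in the controls. The differences of 0.23, 0.38 and 0.49 all had one sign, again with overlapping groups and the lowest values in replica 2. Their mean was 0.37 with a standard error of 0.07 (1.29-fold, limma adjusted p = 0.747).

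Uchl1 measured 13.21, 11.78 and 13.05 with gabazine, against 12.84, 11.57 and 12.89 in the controls. It was higher in each pair, by 0.37, 0.21 and 0.16, and the groups overlapped. The mean was 0.24 with a standard error of 0.06 (1.18-fold, limma adjusted p = 0.747). Nefl measured 13.71, 12.57 and 13.56 with gabazine, against 13.48, 11.82 and 12.90 in the controls. Its differences of 0.23, 0.75 and 0.66 gave the highest mean of the 40 genes, 0.55 with a standard error of 0.14 (1.46-fold, limma adjusted p = 0.747). Here too the gabazine array of replica 2 lay below the controls of replicas 1 and 3. A second probe set of Nefl measured 12.99, 12.30 and 13.51 with gabazine, against 13.24, 12.02 and 13.15 in the controls, so that it was lower in pair 1 and higher in the others (mean 0.13 ± 0.16, limma adjusted p = 0.767), and the higher values in each pair rest on 1 of its 2 probe sets. Ncald measured 13.75, 12.51 and 13.09 with gabazine, against 13.66, 12.32 and 12.93 in the controls. The differences were small but alike, 0.09, 0.19 and 0.16, with a mean of 0.14 and a standard error of 0.04 (1.11-fold, limma adjusted p = 0.747). A second probe set of Ncald stood at 1.97 in pair 1 and -0.02 in pair 2, and was tied in pair 3. The higher values of Ncald in each pair thus rest on 1 of its 2 probe sets. In all 5 genes both arrays of replica 2, which were lower as a whole, lay below every array of the other replicas. With each array's median subtracted, replica 3 was the lowest for Basp1 and Ncald in both groups.

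**Figure D2:**
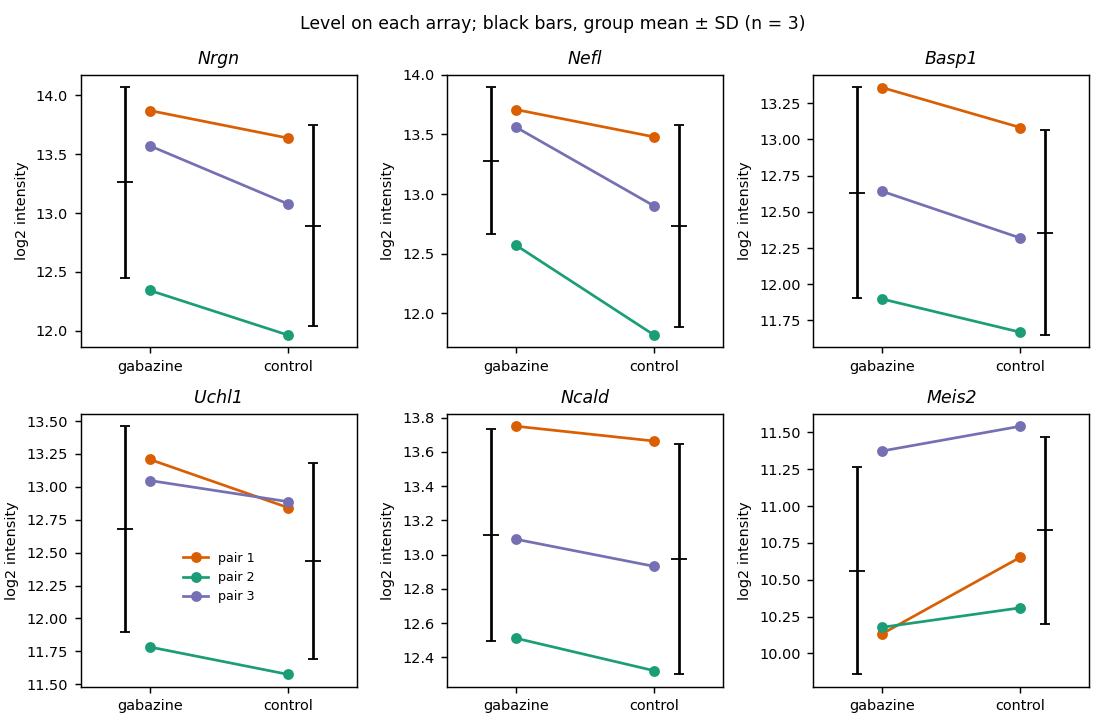
Log2 intensity on the gabazine and control arrays of Nrgn, Nefl, Basp1, Uchl1, Ncald and Meis2, with a line for each pair and black bars for the mean ± SD (n = 3). The gabazine point is above its control point in each pair of the first 5 genes and below it in each pair of Meis2, while the SD bars of the 2 groups overlap in all 6 genes.

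The promoters of Basp1, Nrgn and Uchl1 are shown because these genes, of the 5 described above, stood in the table of promoters. Nefl and Ncald are not in it. Each is the stretch of 250 bases before the gene's start, from RefSeq on GRCr8, on the minus strand at chr2:77594298-77594547 for Basp1, chr8:45452418-45452667 for Nrgn and chr14:41849418-41849667 for Uchl1. Capitals mark the GC box GGGCGG and the cAMP response element half-site TGACG, each searched on both strands.
Basp1: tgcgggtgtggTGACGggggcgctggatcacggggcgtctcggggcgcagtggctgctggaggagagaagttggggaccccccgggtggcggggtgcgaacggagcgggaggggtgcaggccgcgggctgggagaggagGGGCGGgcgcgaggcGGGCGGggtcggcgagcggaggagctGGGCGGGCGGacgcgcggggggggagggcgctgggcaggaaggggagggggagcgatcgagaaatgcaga
Nrgn: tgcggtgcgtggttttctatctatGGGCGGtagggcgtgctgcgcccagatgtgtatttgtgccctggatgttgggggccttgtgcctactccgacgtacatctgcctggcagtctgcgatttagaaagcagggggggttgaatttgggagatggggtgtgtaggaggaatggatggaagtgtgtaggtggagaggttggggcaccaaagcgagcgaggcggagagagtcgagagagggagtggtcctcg
Uchl1: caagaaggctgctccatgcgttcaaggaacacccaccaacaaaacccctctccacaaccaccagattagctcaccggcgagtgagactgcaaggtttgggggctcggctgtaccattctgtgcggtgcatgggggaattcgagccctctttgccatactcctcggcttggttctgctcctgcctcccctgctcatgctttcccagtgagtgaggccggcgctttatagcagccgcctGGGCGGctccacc
Basp1 held 4 GC boxes, the last of which overlap, and 1 half-site, in a stretch with 76.8% G or C. Nrgn and Uchl1 held 1 GC box each and no half-site, with 58.0% and 59.6% G or C.

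The table held promoters for 24 of the 43 genes, among them Lhx6 and Slc17a8, whose levels were not measured. Over these 24, the GC box was found in 14 (58.3%), against 30.5% of 33469 promoters of the same length, and their median G or C content was 60.4%, against 51.2%. The half-site TGACG was found in 7 of the 24 (29.2%, against 18.2%), namely Basp1, Hpca, Marcks, Neurod2, Neurod6, Pvalb and Slc17a6. The full site TGACGTCA was found in Neurod6 alone (4.17%, against 1.59%). The AP-1 site TGANTCA, which contains no half-site, was found in Eno2 and Fezf2 (8.33%, against 6.34%). The CArG box of the serum response factor was found in 0 of the 24, against 1.5% of all promoters. The E-box CANNTG, the motif that the Neurod proteins bind, was found in 17 of the 24 (70.8%, against 65.5%), and TATAAA in Dcx and Uchl1 (8.33%, against 12.9%). A match is a description of letters in this stretch, and the members' promoters were richer in G and C than the others, which was not adjusted for.

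The genes were then read by role, beginning with the vesicular glutamate transporters. Slc17a7 (VGLUT1), the transporter of most mature excitatory synapses in the hippocampus, measured 12.85, 11.68 and 12.57 with gabazine, against 12.85, 11.04 and 12.17 in the controls. The arrays of pair 1 held the same value, and the other pairs were higher by 0.64 and 0.40, with overlapping groups and a mean of 0.35 ± 0.16 (standard error, limma adjusted p = 0.747). A second probe set of Slc17a7 was higher in each pair, by 1.22, 0.29 and 0.47 (mean 0.66 ± 0.24, limma adjusted p = 0.747). The tie in pair 1 thus depended on the probe set. Slc17a6 (VGLUT2), used widely in the immature forebrain, measured 10.29, 10.08 and 11.83 with gabazine, against 10.29, 10.39 and 11.36 in the controls. It was tied in pair 1, lower in pair 2 and higher in pair 3, with a mean of 0.05 ± 0.19 (limma adjusted p = 0.935).

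Of the 10 transcription factors of excitatory and regional identity, 0 were higher in all 3 pairs and 1 was lower, and their median log2 ratio was 0.08. Fezf2, a factor of deep-layer projection neurons, had the highest mean among them. It measured 10.22, 9.43 and 10.42 with gabazine, against 9.78, 9.58 and 9.84 in the controls, so that it was higher in pairs 1 and 3 and lower in pair 2, with overlapping groups and a mean of 0.29 ± 0.19 (limma adjusted p = 0.747). Meis2, a homeobox cofactor, had the lowest mean among the transcription factors. It measured 10.13, 10.18 and 11.37 with gabazine, against 10.65, 10.31 and 11.54 in the controls. It was lower in each pair, with log2 ratios of -0.52, -0.13 and -0.17, and the groups overlapped, because replica 3 was high on both arrays (mean -0.27 ± 0.11, limma adjusted p = 0.747).

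The other factors split by pair. Neurod1 and Neurod6, basic helix-loop-helix factors of differentiating and pyramidal neurons, were lower in pair 1 (-0.31 and -0.22), higher in pair 2 (0.92 and 0.90) and near 0 or slightly higher in pair 3 (0.04 and 0.17). Bcl11b (Ctip2), a zinc finger factor of CA1 and the dentate gyrus, stood at -0.94, 0.77 and -0.24, and Prox1, the factor that keeps dentate granule cell identity, at -0.53, 0.53 and -0.54. Mef2c, an activity-regulated factor of synapse number, stood at -0.37, 0.39 and 0.08. In these 5 genes pair 2 was thus the highest of the 3 pairs and pair 1 or pair 3 the lowest. Neurod2, another factor of the family, had the same order with smaller ratios (-0.01, 0.28 and 0.13). Tbr1, a T-box factor of excitatory neurons, had another order, at 0.78 in pair 1 and tied in pairs 2 and 3. Zbtb20, a zinc finger factor of hippocampal neurons, stood at 0.24, 0.00 and -0.85.

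Of the 4 interneuron genes measured, none passed in either direction and their median was 0.03. Pvalb, the calcium buffer of fast-spiking basket cells, measured 9.88, 8.91 and 9.98 with gabazine, against 9.91, 8.68 and 9.48 in the controls. It was near its control in pair 1 and higher in pairs 2 and 3, with a mean of 0.23 ± 0.13 (limma adjusted p = 0.747). Calb2 (calretinin), a calcium buffer of interneurons that contact other interneurons, measured 10.30, 8.98 and 10.34 with gabazine, against 10.30, 9.22 and 10.34 in the controls, and so was tied in pairs 1 and 3 and lower in pair 2 (mean -0.08 ± 0.07, limma adjusted p = 0.747). Reln (reelin), secreted by Cajal-Retzius cells and interneurons, had a mean of 0.07, and Dlx1, a homeobox factor of the interneuron lineage, a mean close to 0 (ratios from -0.12 to 0.11). The groups of all 4 genes overlapped.

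Among the 5 calcium and calmodulin binding proteins, Nrgn, Ncald and Hpca were higher in all 3 pairs, and the median was 0.14. Hpca (hippocalcin), a calcium sensor of pyramidal neurons, had the highest mean of them. It measured 13.26, 11.95 and 12.52 with gabazine, against 13.23, 11.20 and 12.17 in the controls, which is 0.04, 0.75 and 0.35 higher, with a mean of 0.38 ± 0.17 (limma adjusted p = 0.747). Pcp4, a calmodulin regulator that marks CA2 and the dentate gyrus, had the lowest. It measured 13.52, 13.52 and 13.51 with gabazine, against 13.84, 13.39 and 13.57 in the controls, with a mean of -0.08 ± 0.11 (limma adjusted p = 0.781). The 3 gabazine arrays were nearly level for Pcp4, within the range of the controls. Calb1 (calbindin), the buffer of granule cells and CA1, had a mean of -0.06 with ratios from -0.27 to 0.08.

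Wfs1, a membrane protein of the endoplasmic reticulum that marks CA1, measured 9.36, 7.68 and 8.90 with gabazine, against 8.65, 7.58 and 8.53 in the controls. It was higher in each pair, by 0.72, 0.09 and 0.36, with overlapping groups and a mean of 0.39 ± 0.15 (1.31-fold, limma adjusted p = 0.747). On the arrays it lay close to the median of all probe sets, and no detection measure is given. Dkk3, a secreted Dickkopf-family protein, measured 13.10, 12.55 and 12.57 with gabazine, against 13.10, 12.48 and 12.56 in the controls, so that pair 1 was tied and the other pairs differed little (mean 0.03 ± 0.03, limma adjusted p = 0.773). Crym (crystallin mu, a thyroid hormone binding protein) had a mean of 0.03.

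On their brightest probe sets, the neurofilament and internexin subunits did not share one pattern. Nefl was higher in all 3 pairs, while Nefm, the medium subunit with which it assembles, measured 12.42, 11.33 and 12.51 with gabazine, against 12.66, 11.21 and 12.40 in the controls. Nefm was lower in pair 1 (-0.24) and higher in pairs 2 and 3 (0.12 and 0.11), with a mean of -0.005 ± 0.10 (limma adjusted p = 1.00). Nefh, the heavy subunit, and Ina, alpha-internexin, had the same signs in the 3 pairs as Nefm, with means of 0.19 and 0.11. A second probe set of Ina was higher in each pair, by 0.59, 0.13 and 0.40. Its mean was 0.38 ± 0.11, with an unadjusted limma p under 0.05 (limma adjusted p = 0.747). The sign of Ina in pair 1 thus depended on the probe set. On the brightest probe sets, all 4 subunits were higher in pairs 2 and 3, under the deposited and all 3 other scalings. In pair 1, 1 of the 4 was higher (2 with cyclic loess).

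Of the 5 microtubule proteins, Tubb3 alone was higher in all 3 pairs on the brightest probe set, and the median was 0.01. Tubb3, the neuronal beta-tubulin, measured 12.25, 10.81 and 12.39 with gabazine, against 12.16, 10.74 and 12.06 in the controls, with a mean of 0.16 ± 0.08 (limma adjusted p = 0.747). Dcx, which binds microtubules in migrating and newly born neurons, had the lowest mean of the 40 genes. It measured 9.83, 10.02 and 11.16 with gabazine, against 10.25, 9.92 and 11.66 in the controls, which is -0.42, 0.10 and -0.50 as log2 ratios (mean -0.27 ± 0.16, limma adjusted p = 0.747). Both genes had overlapping groups, with replica 3 of Dcx high on both arrays. Stmn2 (a tubulin-binding protein of growing axons), Mapt (tau) and Map2 (the dendritic microtubule protein) had means of 0.10, 0.01 and -0.15. The less bright probe sets of Mapt (means 0.15 and 0.18) and Stmn2 (0.22) were higher in all 3 pairs. The one of Mapt at 0.18 had an unadjusted limma p under 0.05 (limma adjusted p = 0.747). The second probe set of Tubb3 stood at -0.21, 0.22 and 0.13, and those of Map2 and Dcx were not higher in all pairs either.

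Of the growth cone and membrane cytoskeleton proteins, Basp1 was higher in all 3 pairs, and its partners were not. Marcks, a protein kinase C substrate that binds actin and, like Basp1, sits on the inner face of the membrane, measured 13.05, 13.38 and 14.28 with gabazine, against 13.42, 13.38 and 14.36 in the controls. It was lower in pair 1, tied in pair 2 and slightly lower in pair 3 (mean -0.15 ± 0.10, limma adjusted p = 0.747). Gap43, the third such protein, had a mean of -0.06 with ratios from -0.11 to 0.01.

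Among the 4 pan-neuronal markers the median was 0.13, and Uchl1 and Eno2 were higher in all 3 pairs. Eno2, the neuronal enolase, had a mean of 0.13, and Thy1, a surface glycoprotein of projection neurons, a mean of 0.12. Rbfox3 (NeuN), the splicing factor used to count neurons, had the lowest mean of the 4. It measured 12.47, 12.13 and 12.81 with gabazine, against 12.47, 11.82 and 12.82 in the controls, with a mean of 0.10 ± 0.09 (limma adjusted p = 0.747). It stood at its control in pairs 1 and 3 and higher in pair 2.

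The pairs were then read one by one. The 40 genes had median log2 ratios of -0.06, 0.14 and 0.10 in pairs 1, 2 and 3, where all genes gave -0.01, 0.00 and 0.00. Of the 40 genes, 32.5% lay above 0 in pair 1, 80% in pair 2 and 65% in pair 3, against 33.9%, 34.3% and 48.1% of all genes. Below 0 lay 57.5%, 12.5% and 27.5% of the 40, against 51.6%, 44.8% and 30.2% of all genes, and the rest had exactly the same value on both arrays. In the deposited values the share above 0 was larger than that of all genes in pairs 2 and 3 and not in pair 1. Under the other scalings the shares are set against all probe sets, dim and unnamed ones included, because those of all genes are not given. Pair 2 kept the larger share there, with medians of 0.13 to 0.15. In pair 3, quantile normalization left 57.5% of the 40 genes above 0, against 57.3% of all probe sets. In pair 1 the result depended on the scaling. As deposited the share was 32.5%, against 39.2% of all probe sets, and with each array centred on its median 25%, against 30.7%. It was the larger one after quantile normalization (47.5% against 39.4% of all probe sets) and after cyclic loess (57.5% against 44.6%). The median of the 40 in pair 1 was -0.13 with centring and 0.03 with cyclic loess. The median of the 40 over the remaining pairs was 0.18 without replica 1, 0.002 without replica 2 and 0.06 without replica 3.

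**Figure D3:**
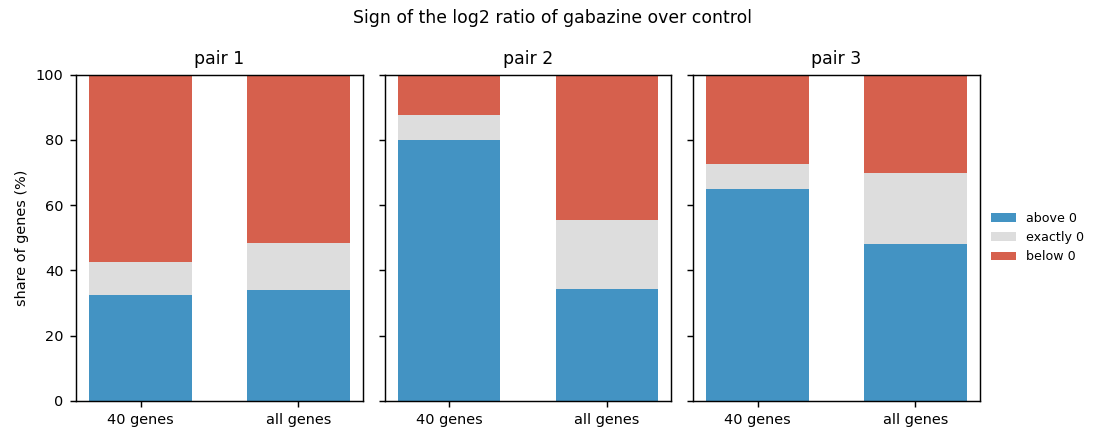
Share of genes whose log2 ratio of gabazine over control was above 0, exactly 0 or below 0 in each pair, for the 40 measured genes and for all 14218 genes. The share above 0 is 32.5%, 80% and 65% for the 40 genes, against 33.9%, 34.3% and 48.1% for all genes, in pairs 1, 2 and 3.

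The highest ratios of pair 2 were those of Neurod1 (0.92), Neurod6 (0.90), Bcl11b (0.77), Nefl (0.75), Hpca (0.75), Slc17a7 (0.64) and Prox1 (0.53). After each array's median was subtracted, the control of replica 2 was the lowest of all 6 arrays for 15 of the 40 genes (37.5%), against 15.7% of all genes. Neurod6, for example, lay 3.70, 3.88 and 4.21 above the array median with gabazine, against 3.99, 2.97 and 4.02 in the controls, where the control of replica 2 is the one that stands apart. The same array was the lowest of the 6 for Nefl, Hpca and Slc17a7, while for Neurod1, Bcl11b and Prox1 the gabazine array of replica 1 was the lowest. These genes were picked for a high ratio in pair 2, which a low control or a high gabazine array of replica 2 gives. A low control of replica 2 among them thus follows in part from the choice. Which of the 2 arrays of pair 2 departs from the usual level cannot be told from 1 pair.

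The untreated cultures were also compared between replicas. After median subtraction the range over the 3 controls had a median of 0.75 over the 40 genes, against 0.54 over all genes, and it was above 1 for 22.5% of the 40, against 14.3% of all genes. The comparison has 1 control array per replica and no test. Between the controls of replicas 3 and 1, 9 of the 40 genes (22.5%, against 19.2% of all genes) were more than 0.5 higher in replica 3 and 11 (27.5%, against 21.7%) were more than 0.5 lower, so that both shares lay near those of all genes. The sign of this difference was the same on the gabazine arrays for 26 of the 40 genes (65%), against 83.2% of all genes. It was the same for 18 of the 20 genes beyond 0.5. The share of all genes at that cut is not given, and a larger difference keeps its sign more easily.

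The genes higher in the control of replica 3 were Neurod1 (1.34), Dcx (1.33), Reln (1.23), Gap43 (1.14), Slc17a6 (1.00), Prox1 (0.87), Marcks (0.86), Meis2 (0.81) and Zbtb20 (0.68). The genes lower there were Hpca (-1.13), Thy1 (-1.07), Nefh (-1.06), Basp1 (-0.84), Ncald (-0.81), Slc17a7 (-0.76), Nefl (-0.66), Nrgn (-0.64), Dkk3 (-0.62), Neurod2 (-0.62) and Pvalb (-0.50). Zbtb20 and Pvalb had the opposite sign between the gabazine arrays (-0.31 and 0.13). The growth cone proteins Gap43 and Marcks thus stood on one side and Basp1 on the other. Dcx lay 1.12, 2.13 and 2.48 above the array median with gabazine, against 1.62, 2.02 and 2.95 in the controls, and Hpca 4.55, 4.06 and 3.84 with gabazine, against 4.60, 3.30 and 3.46 in the controls, in replicas 1, 2 and 3. Replica 1 was lowest for Dcx and highest for Hpca on the arrays of both treatments. The spread of 1.33 for Dcx and 1.29 for Hpca between untreated replicas was larger than their mean log2 ratios with gabazine, -0.27 and 0.38. The age of the pups behind each replica is given only as above, and its part in these differences was not tested.

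**Figure D4:**
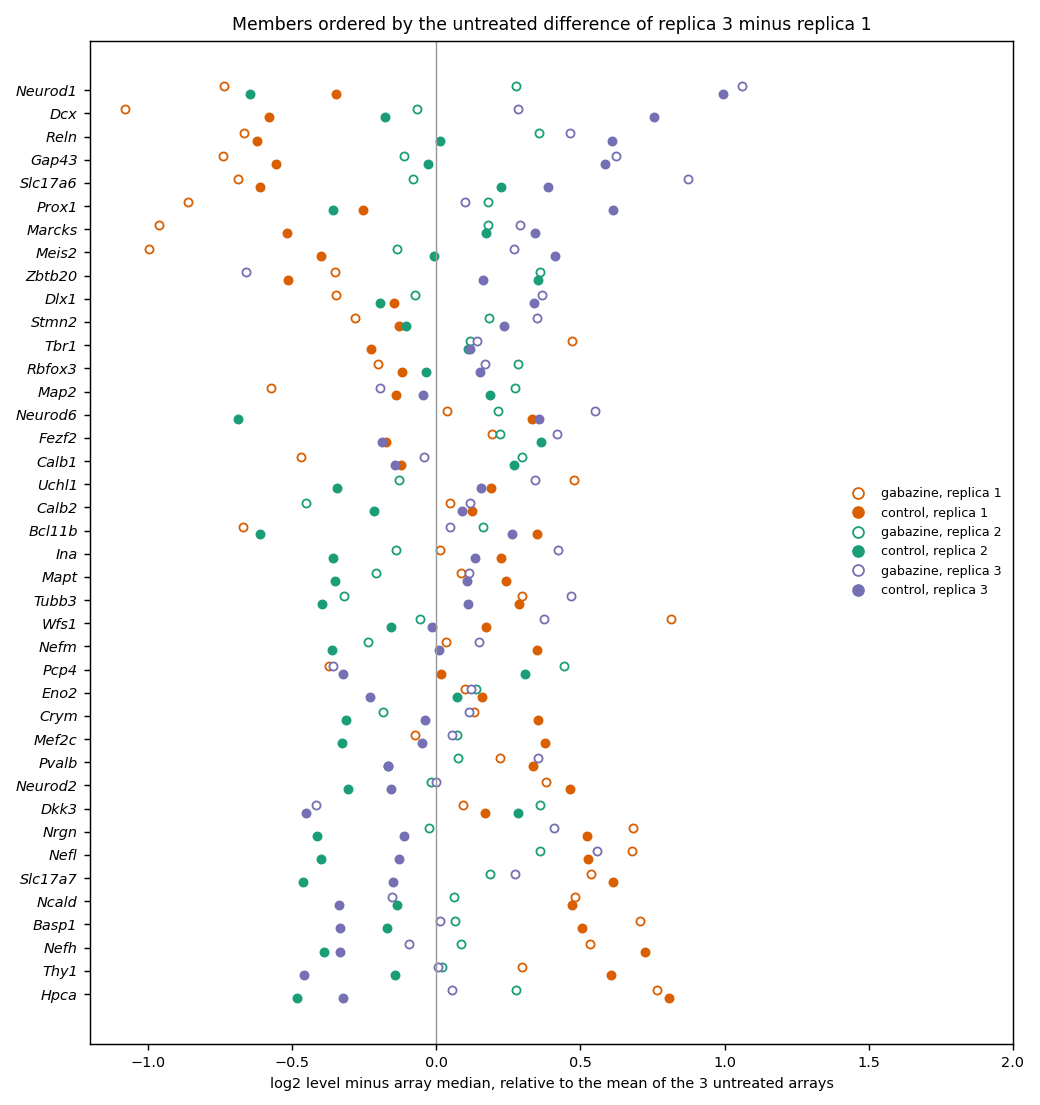
Log2 level of each gene minus the array median, relative to the mean of the 3 controls, on the gabazine arrays (open circles) and control arrays (filled circles) of replicas 1, 2 and 3, with genes ordered by the control of replica 3 minus that of replica 1. Neurod1 and Dcx stand at the top with 1.34 and 1.33, and Thy1 and Hpca at the bottom with -1.07 and -1.13.

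Of the 40 genes, 20 had more than 1 probe set, and the probe sets did not always give the same answer. In 5 genes they spanned more than 0.5 in mean log2 ratio, namely Zbtb20, Marcks, Thy1, Ncald and Bcl11b, and in 9 genes they differed in sign, so that 11 genes had one or the other. The span was -0.20 to 0.93 for the 6 probe sets of Zbtb20 and -0.15 to 0.76 for the 6 of Marcks. It was 0.12 to 0.67 for Thy1, 0.14 to 0.65 for Ncald and -0.14 to 0.37 for Bcl11b. Dkk3 ran from -0.21 to 0.21, Map2 from -0.15 to 0.19, Mef2c from -0.30 to 0.03, Basp1 from -0.02 to 0.28, Rbfox3 from -0.09 to 0.10 and Prox1 from -0.18 to 0.01. For Basp1, the second probe set was tied in pairs 1 and 3 and at -0.07 in pair 2, so that the higher values of this gene rest on 1 of its 2 probe sets.

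The widest ratios were found in pair 1. Of the 72 probe sets, 7 were beyond 2-fold in a pair, and none of the 7 was the brightest of its gene. In pair 1, 6 of the 7 were higher with gabazine, with log2 ratios of 2.82 and 1.37 for Zbtb20, 2.29 for Marcks, 1.97 for Ncald, 1.53 for Thy1 and 1.22 for Slc17a7. The other was a probe set of Zbtb20 at -1.05 in pair 3. The dimmest probe set of Zbtb20 measured 8.63, 6.94 and 7.40 with gabazine, against 5.81, 6.92 and 7.46 in the controls, so that only pair 1 stood apart. Over all probe sets 5.18%, 0.884% and 0.466% were beyond 2-fold in pairs 1, 2 and 3, so that pair 1 was also the widest over the whole array.

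The 32 probe sets that were not the brightest of their gene had median log2 ratios of 0.11, 0.15 and 0.00 in pairs 1, 2 and 3, against -0.06, 0.14 and 0.10 for the brightest ones. Pair 1 was thus above 0 on the less bright probe sets and below 0 on the brightest. The array carries probe sets for the 5′ and 3′ ends of 3 rat control transcripts, which follow how complete the labelled RNA is. The 5′ log2 ratio minus the 3′ one had a median of 0.50, -0.02 and -0.08 over the 3 transcripts in pairs 1, 2 and 3, and it reached 1.70 for beta-actin in pair 1. Over all 20 control transcripts, the rat ones included, the medians were 0.40, 0.04 and -0.01. The part of RNA quality in the ratios of pair 1 was not tested.

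**Figure D5:**
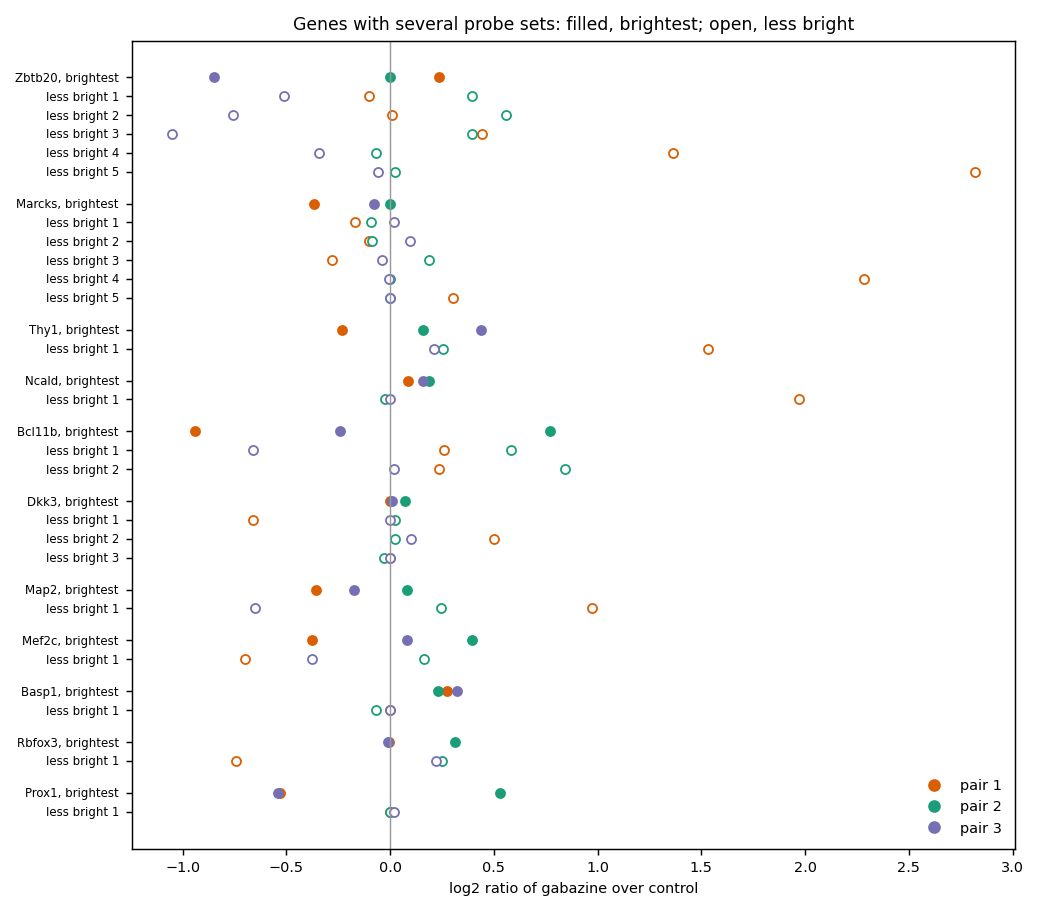
Log2 ratio of gabazine over control of each probe set in pairs 1, 2 and 3 for genes with more than 1 probe set whose values disagree, with the brightest probe set marked. The points far above 0 are less bright probe sets in pair 1, up to 2.82 for Zbtb20.

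Equal values within a pair were frequent. Of the 72 probe sets, 18 had exactly the same value on both arrays of at least 1 pair and 2 had it in all 3 pairs, beside 14754 of the 31099 probe sets of the array. Of the brightest probe sets, 8 of 40 had such a tie, among them those of Slc17a7, Slc17a6, Calb2, Dkk3 and Marcks. A tie enters the log2 ratio of its pair as 0.

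Other genes of the same kinds were read from lists of related genes, and most did not pass either. Of 19 further excitatory neuron and forebrain factors, 17 were measured, with a median log2 ratio of 0.03, and 2 were higher at an unadjusted limma p under 0.05 and 0 lower. The 2 were Emx1 (0.22, limma adjusted p = 0.747), a homeobox gene of the dorsal forebrain, and Sox4 (0.30, limma adjusted p = 0.747), a factor of newly formed neurons. Etv1 and Nr2f2 had the smallest p among the lower ones (-0.26 and -0.17). Of 15 further interneuron genes, 12 were measured, with a median of 0.01 and none past this level. Dlx5 (0.12) and Npy (0.16) had the smallest p on the higher side, and Gad1 (-0.16), which makes GABA from glutamate, and Vip (-0.18) on the lower side.

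Of 30 further neuronal genes, most but not all of them of the cytoskeleton, 28 were measured, with a median of 0.04, and 1 was higher and 0 lower. The one was Tubb4a, another beta-tubulin, which measured 13.24, 11.90 and 13.19 with gabazine, against 12.96, 11.51 and 12.78 in the controls (mean 0.36 ± 0.05, limma adjusted p = 0.747). Like Tubb3 it was higher in each pair with overlapping groups. Dpysl3, a collapsin response mediator protein, had a mean of 0.44 with ratios of 0.86, 0.36 and 0.10, and Elavl3 and Ank3 had the smallest p on the lower side (-0.13 and -0.21).

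Markers of other cells that a slice can hold were read beside these genes. Of 9 oligodendrocyte markers 8 were measured, and 3 of the 8, Mog, Mbp and Cnp, were higher in each pair (0.36, 0.24 and 0.16, limma adjusted p = 0.747 for each), the first 2 with an unadjusted p under 0.05. The list's median was 0.24, 0.26 and 0.09 in pairs 1, 2 and 3, and its log2 summed level ran from 15.02 to 15.65 with gabazine, against 14.76 to 15.42 in the controls. The medians of the astrocyte, microglia and vascular lists were 0.07, 0.15 and -0.01 over the pairs, with 0 of their 23 measured markers past the unadjusted level. Higher values in all 3 pairs were found for 3 of 9 astrocyte, 1 of 8 microglia and 1 of 6 vascular markers. Lower ones were found for 1, 1 and 0. Of the 5 choroid plexus markers 3 were higher in all pairs, beside 7.79% of all genes. This trait was thus not particular to the neuronal genes. Of the 6 meningeal and fibroblast markers, Lum was lower in each pair (-0.30, limma adjusted p = 0.747), while the list's median was 0.42, 0.56 and -0.33 in pairs 1, 2 and 3. Ttr, the transthyretin of the choroid plexus, measured 13.03, 10.93 and 8.43 with gabazine, against 8.44, 10.79 and 8.36 in the controls. Its log2 ratio was 4.59 in pair 1, and the summed level of the 5 choroid plexus markers was 13.46, 11.35 and 10.57 with gabazine, against 10.97, 11.23 and 10.48 in the controls, on the log2 scale. The part of these other cells in the ratios of the neuronal genes was not tested, and pair 1, in which Ttr stood apart, was the pair in which the 40 genes, as deposited, had a median below 0.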

How the data were processed

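RNA of 3 gabazine-treated and 3 untreated cultures was hybridised to Affymetrix RAT2302 arrays, 1 per sample. The deposited log2 values are the authors' output of RMA (Robust Multi-array Average), a method that corrects background, normalizes arrays and summarizes probes. The sources used here do not give its version or whether 1 run covered all 6 arrays. The table has no detection measure, so the signal over background of dim probe sets is unknown, and the number of arrays limits the precision.

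Of 31099 probe sets, 20832 carry 1 gene symbol, 436 several and 9831 none, and only the first kind was named. limma 3.58.1 (R 4.3.3) was fitted on all probe sets with pair and treatment as terms (2 residual degrees of freedom), moderated with eBayes and adjusted after Benjamini-Hochberg, and was tested on simulated data. The pairing comes from the methods, which compare each replica with its own control. Deviations from the group means correlated at 0.794, 0.664 and 0.853 within pairs 1, 2 and 3, and at -0.70 to 0.08 between different numbers. The p-values of this paired fit rest on the moderated spread of the log2 ratios over the 3 pairs, and not on the spread of levels between replicas.

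Values on every array were given for genes with an unadjusted p under 0.05 and for the highest and lowest mean of each role group, and related lists are named by the 2 smallest p in each direction. The genes and lists were chosen with earlier results of these data known. Promoters were matched by symbol to the RefSeq table, which held 24 of 43. Further tools were Python 3.11.15, pandas 2.3.3, numpy 2.4.6 and matplotlib 3.10.9.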

Additional observations from a re-analysis of the deposited data

How the results depend on the processing

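None of the 40 genes passed the adjusted threshold under any setting run, and the median of the 40 genes stayed above 0, between 0.06 and 0.13 under the other scalings, filters and probe set rules and between 0.002 and 0.18 with a replica left out. Without the replicate block, which drops the pairing, the genes higher at an unadjusted limma p under 0.05 numbered 0 instead of 5, while 14 of all 31099 probe sets then passed the adjusted threshold against 0 with it. With probe sets tied in a pair left out, 3 genes were higher at this level out of 32 left. Quantile normalization gave 1 gene lower at this level and 2 lower in all pairs, and cyclic loess gave 3 lower in all pairs and turned Nefm to 0.0133. With each replica left out in turn, the genes higher at the unadjusted level numbered 1 to 9 and those lower 0 to 2. Those higher in the remaining pairs numbered 10 to 23 and those lower 1 to 9. Fewer pairs agree in sign more easily. The shares of all genes are not given for these counts of the 40, which cannot be set against the shares of the main setting. The mean log2 ratios that changed sign then ranged from -0.19 to 0.0342 for Pcp4, from -0.0651 to 0.11 for Nefm, from -0.00793 to 0.15 for Rbfox3 and from -0.16 to 0.23 for Slc17a6. Calb2 stood at 0 without replica 2, where its remaining pairs are tied, and 15 of the 20 named genes were left once ties were dropped. The other named genes kept their sign in each setting that gave a value, and the cause of the other changes was not tested. Without a detection measure, no signal over background can be given for the dim probe sets.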
